A study of Mus musculus with 28 samples.

Results

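Bone marrow-derived macrophages of Irgm1KO mice given 50 µM fenofibrate were compared with untreated macrophages of WT mice, to ask which genes that differ in the mutant stood at the WT level under the drug, which stayed changed and which went past it. The comparison rests on 8 of the 28 libraries of the series, 4 of Irgm1KO fenofibrate and 4 of WT control, and the Irgm1KO control libraries of the same experiment (n = 4) supplied the starting difference of each gene. Of 56941 genes in the table of read counts, 15429 passed the filter on low counts, and all of these were tested. Per the labels, the mutant had been backcrossed to C57BL/6, marrow came from male and female mice of 2 to 4 months, and the cells grew for 6 days with L929 cell-conditioned medium before 24 h without it. Fenofibrate is the 1 agent named, and neither the length of the exposure nor the treatment of the control cells is given. Whether the 4 libraries of a group came from 4 separate mice is not stated, and the p-values rest on a spread between libraries that may be technical in part. Irgm1KO fenofibrate and WT control differ in genotype and drug at once, which their comparison cannot tell apart, and so Irgm1KO control and WT fenofibrate (n = 4) are given beside it.

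Irgm1 is an interferon-induced GTPase that acts in autophagy and in the upkeep of mitochondria, and macrophages without it are known for raised type I interferon signalling. Fenofibrate is a lipid-lowering drug whose acid form activates PPARα, a nuclear receptor that switches on genes of fatty acid oxidation in mitochondria and peroxisomes and that can also dampen inflammatory transcription. Macrophages express several receptors of this family, and they use fatty acid oxidation, glycolysis and sterol synthesis to different degrees in different states of activation.

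Irgm1 itself stood at 1669, 1514, 1652 and 1577 CPM (read counts of each library scaled to the same total) in WT control, 1013, 1040.3, 1029 and 991 in the untreated mutant and 1017, 1144, 1093 and 1048 in the treated mutant. It was lower in all mutant libraries than in all WT libraries, with a log2 difference of -0.58 ± 0.05 (± SE, as throughout) between Irgm1KO fenofibrate and WT control. The counts are per gene and do not show which exons the remaining reads came from. Libraries held 82.4 to 118.1 M counts in these 2 groups, and a gene with no symbol, ENSMUSG00000119584, took up to 10.3% of a WT control library and up to 8.13% of an Irgm1KO fenofibrate library. Xist was high in 2 of 4 WT control and in 3 of 4 Irgm1KO fenofibrate libraries, so the groups differ in the sex of their donors. All 10 macrophage marker genes were detected, and their summed level ran from 26500 to 36200 CPM in WT control, 13800 to 16500 in Irgm1KO control and 18100 to 21900 in Irgm1KO fenofibrate. In bulk RNA, fewer cells of a type and less RNA per cell cannot be told apart. The part of donor sex and of the lower macrophage markers in the results that follow was not tested beyond a fit with Xist as a covariate, which called 3996 genes higher and 3513 lower.

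Under fenofibrate the mutant still differed from WT control in close to as many genes as without it. In Irgm1KO fenofibrate minus WT control, 4000 genes were higher and 3466 lower at an adjusted p under 0.05 (edgeR quasi-likelihood test with Benjamini-Hochberg adjustment; such a gene is said to be called), which is 48.4% of the genes tested (25.9% higher and 22.5% lower). Before the drug, in Irgm1KO control minus WT control, 4219 were higher (27.3%) and 4026 lower (26.1%), together 53.4%. Over 2-fold, 605 genes were higher (3.92%) and 555 lower (3.6%) with the drug, against 841 and 831 without it. The libraries of Irgm1KO fenofibrate and WT control did not overlap for 6844 genes (44.4%), and the median log2 difference over all tested genes was 0.01. The drug itself, in Irgm1KO fenofibrate minus Irgm1KO control, raised 3626 genes and lowered 3427 (45.7%).

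The 8245 genes that differed in Irgm1KO control were divided by where the drug left them. Returned means that the drug difference was called against the mutant's difference and the remaining difference from WT control was not called, and 2403 genes (29.1%) met this. Of these, 1869 (77.8%) had a 95% interval of the remaining difference within 1.5-fold of WT control on either side, so the others are unresolved as to closeness. Partly returned genes, which the drug moved towards WT but which remained different, numbered 1140 (13.8%), and 585 (7.1%) moved past WT control to its other side. Left changed, with no drug call and a remaining difference, held 2735 genes (33.2%), and 550 (6.67%) moved further from WT control. An interval within 1.5-fold was not particular to returned genes. It also held for 629 partly returned (55.2%), 344 moved past (58.8%), 1287 left changed (47.1%) and 112 moved further genes (20.4%). Replicate numbers pair the treated with the untreated libraries of the mutant, and with drug calls from a fit that blocks on the number within each genotype (the paired fit) returned became the largest class with 2603 genes, ahead of 2354 left changed, with 1337 partly returned and 734 moved further. Named genes whose class changes there are given with that value. The last 832 (10.1%) met none of these. Outside the 8245, 1737 genes were newly changed, with no call in Irgm1KO control but a drug call and a remaining difference in the same direction. The 3 comparisons share libraries, so these classes are counts that the question fixes and carry no test of their own. Genes higher and genes lower in the mutant divided in similar proportions: 28.8% and 29.5% were returned, 34.1% and 32.2% left changed, and 6.02% and 8.22% moved past.

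**Figure D1:**
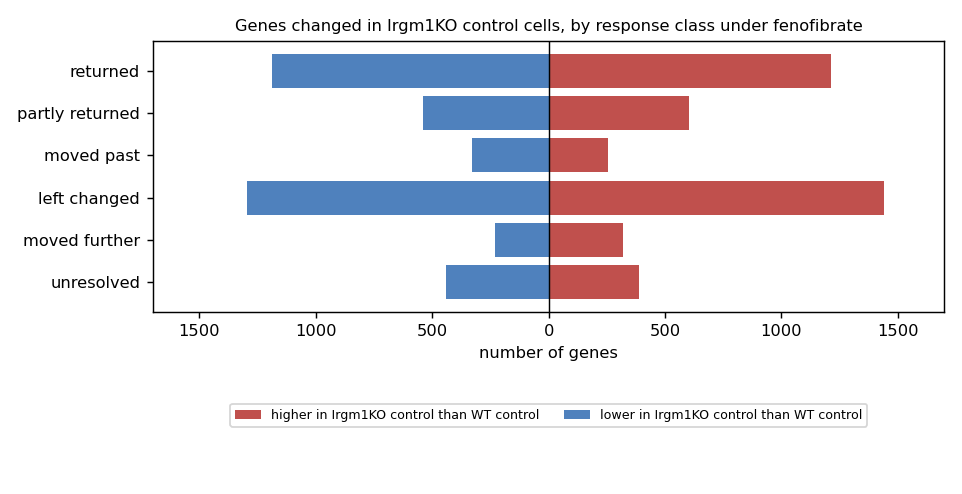
Bars give the number of genes (x axis) in each response class (y axis), to the right for genes higher and to the left for genes lower in Irgm1KO control than in WT control. Returned holds 1214 and 1189 genes, left changed 1439 and 1296, and moved past 254 and 331.

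A choice of genes that shares no library with these groups came from the first experiment of the series, in which Irgm1-KO and WT macrophages without drug were compared (n = 4 each). Of the 2721 genes higher there (19.8% of the genes tested there were higher and 20.7% lower) that could be tested here, fenofibrate lowered 1631 (59.9%) in the mutant, against 22.2% of all genes. Under the drug, 1167 of them (42.9%) were still higher than WT control, 367 (13.5%) were lower and 1187 were not called. Of the 2842 genes lower in the first experiment, the drug raised 1620 (57.0%), against 23.5% of all genes, and 1184 (41.7%) remained lower than WT control. Genes picked in other libraries were thus moved towards WT more often than tested genes as a whole, and the larger part of those still called kept the mutant's direction.

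Interferon-stimulated genes were the list that the drug lowered in full. These genes are switched on by type I interferon through the transcription factor complex ISGF3, and their products block viral replication or feed back on the pathway. Of 59 tested members, 58 were higher in Irgm1KO control (median log2 difference 1.44), and 59 of 59 fell with fenofibrate in the mutant (median -1.32). Against WT control, 16 remained higher and 8 were lower under the drug, a called share close to that of all genes (48.4%), and the median was 0.05. By class, 35 were returned, 16 partly returned and 7 moved past, and Parp14 was newly lowered (-0.24 ± 0.09), a call that is lost without WT control replicate 1 (-0.24) or 3 (-0.19) or without Irgm1KO fenofibrate replicate 1 (-0.24), 2 (-0.16) or 3 (-0.23). With Xist as a covariate the number lower than WT control rose from 8 to 21.

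ISGF3 binds a promoter motif called the interferon-stimulated response element. It was looked for in the promoters of this list because it is the motif matched to interferon-stimulated genes, whatever their drug response. In RefSeq promoter windows of 300 bases on the GRCm38.p6 build (from 250 bases before to 50 after each start), the core of the motif (GAAA, any 2 bases, GAAA) was searched on both strands, so that it can also read TTTC, any 2 bases, TTTC. It was found in 22 of 57 windows of 46 matched members (38.6%) and in 440 of 13051 windows of all tested genes (3.37%). It stood in 12 of 37 windows of returned members, 6 of 14 of partly returned members and 4 of 6 of members that moved past. A match is a description of letters and not a shown binding site. The 250 bases before the start follow for a returned (Ifit1) and a partly returned member (Isg15) and for Cxcl10, a moved-past gene of the cytokine list, with the matches in capitals, those of Isg15 overlapping.
Ifit1 (GRCm38.p6, chr19:34640639-34640888, plus strand): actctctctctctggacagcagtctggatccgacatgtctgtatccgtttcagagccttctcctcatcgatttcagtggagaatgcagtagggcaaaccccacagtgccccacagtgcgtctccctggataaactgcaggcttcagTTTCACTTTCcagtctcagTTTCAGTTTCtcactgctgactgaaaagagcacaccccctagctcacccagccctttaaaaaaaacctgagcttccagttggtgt
Isg15 (GRCm38.p6, chr4:156200819-156201068, minus strand): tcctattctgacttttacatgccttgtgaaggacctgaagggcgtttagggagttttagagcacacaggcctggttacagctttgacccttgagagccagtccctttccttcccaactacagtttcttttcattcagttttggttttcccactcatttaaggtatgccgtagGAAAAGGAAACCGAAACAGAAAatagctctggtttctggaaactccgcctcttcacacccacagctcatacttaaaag
Cxcl10 (GRCm38.p6, chr5:92348890-92349139, minus strand): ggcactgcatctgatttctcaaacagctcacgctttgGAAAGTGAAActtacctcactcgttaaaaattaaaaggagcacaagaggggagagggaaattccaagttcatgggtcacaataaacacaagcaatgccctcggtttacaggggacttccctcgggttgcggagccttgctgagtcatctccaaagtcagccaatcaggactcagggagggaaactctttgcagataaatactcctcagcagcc

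Ifit1, which binds foreign RNA ends, returned. It stood at 181, 170.3, 215 and 159 CPM in WT control, 753, 701, 632 and 749.5 in Irgm1KO control and 193, 184, 159 and 185 under the drug. The treated mutant overlapped WT control and every untreated mutant library was higher, and the remaining log2 difference was -0.01 ± 0.13 (edgeR adjusted p = 0.968). Mx1, a GTPase that traps viral nucleocapsids, went from 499, 365, 370.00 and 479 CPM in Irgm1KO control to 46.3, 39.4, 30.5 and 43.5 under the drug, beside 28.5, 31.3, 36.8 and 26.6 in WT control. Its remaining difference of 0.38 ± 0.17 was not called (adjusted p = 0.0866), but it was called in a fit of the 2 groups alone (adjusted p = 0.0444) and without Irgm1KO fenofibrate replicate 3 (0.48, adjusted p = 0.0331). Mx2 (3.51 before and 0.10 under the drug) and the exonuclease Isg20 (4.21 and 0.49) returned by the same criteria, Isg20 again being called in a fit of the 2 groups alone (adjusted p = 0.0494).

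The strongest interferon-stimulated genes of the mutant did not all get back. Oasl1, a regulator of Irf7 translation, stood at 35.2, 29.9, 36.2 and 29.7 CPM in WT control, 714, 626, 529 and 643 in Irgm1KO control and 121, 146, 101 and 115 under the drug. All treated mutant libraries lay between the other 2 groups, with 1.89 ± 0.13 remaining of 4.26 ± 0.14 (adjusted p = 4.44e-08). Isg15, a ubiquitin-like protein joined to other proteins, kept 0.68 ± 0.17 of 3.11, at 85.3, 96.2, 65.1 and 90.6 CPM against 48.8, 51.5, 65.7 and 44.2 in WT control. Irf7, the transcription factor that amplifies interferon production, kept 0.92 ± 0.17 of 2.59. Usp18, which removes Isg15 from proteins and damps the interferon receptor, kept 0.85 of 2.54, and the membrane tether Bst2 kept 0.71 of 1.57. Below WT control lay Slfn8 (-0.40) and Parp9 (-0.23), which had been 1.05 and 0.49 above it. Apol9b and Apol9a, near-identical genes whose reads may be split between them, remained 2.06 ± 0.30 and 2.30 ± 0.28 above WT control from 5.58 and 5.91.

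In WT cells fenofibrate lowered the same list too, to a median of -0.41 below WT control, with 43 of 59 members lower and 3 higher (35% of all genes were called in WT fenofibrate minus WT control). The fall was larger in the mutant for 54 of 59 members by the test of that difference, which called 29.6% of all genes. Ifit1, at 123, 102, 152 and 93.5 CPM in WT fenofibrate, fell by 0.62 ± 0.13 in WT and by 1.97 ± 0.13 in the mutant, a difference of -1.35 ± 0.18 (adjusted p = 6.42e-05). Oasl1 fell by 0.43 ± 0.13 in WT and by 2.38 ± 0.13 in the mutant, a difference of -1.95 ± 0.18 (adjusted p = 2.36e-06).

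**Figure D2:**
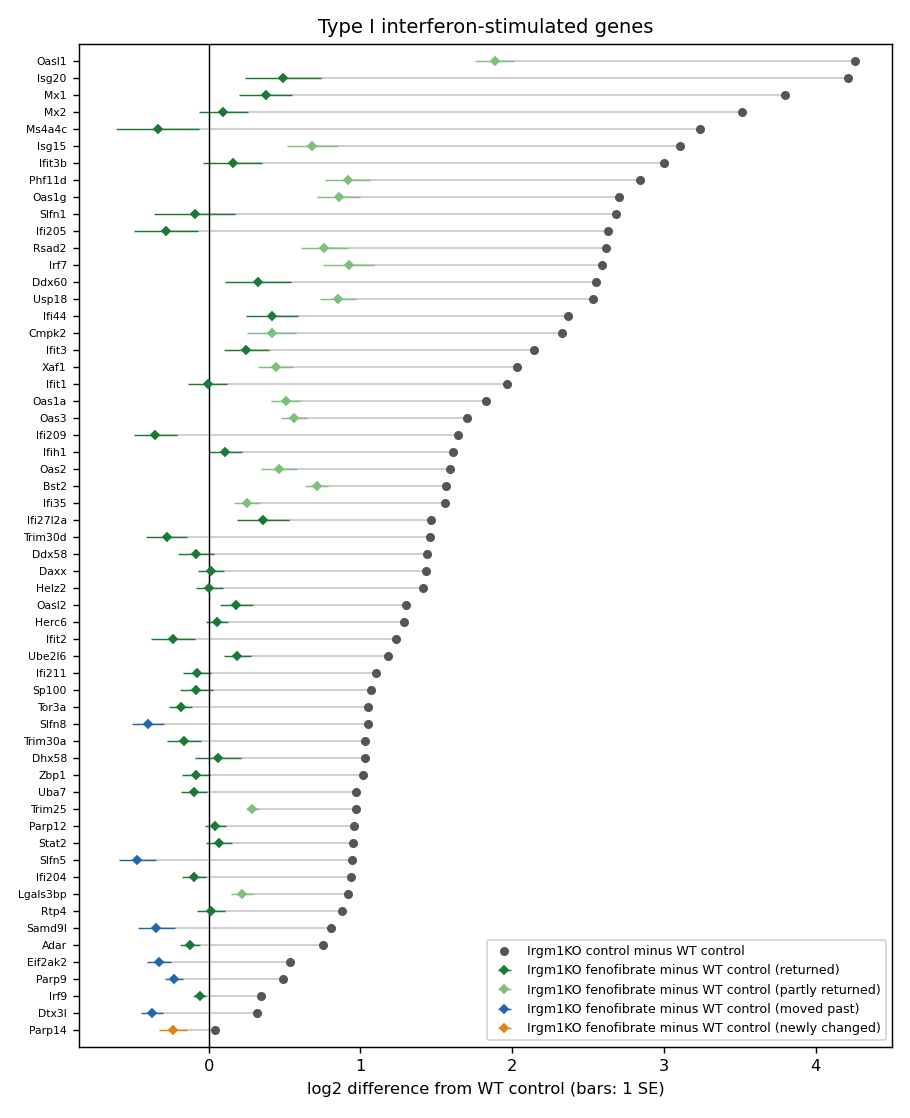
Each row is an interferon-stimulated gene, 58 of the 59 tested being drawn; grey circles give the log2 difference of Irgm1KO control from WT control and diamonds that of Irgm1KO fenofibrate from WT control (bars, 1 SE), coloured by response class. Nearly all grey circles lie right of 0 and the diamonds gather around it, with Oasl1 farthest to the right at 1.89.

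Ifnb1, which encodes the cytokine that starts this response, was near the limit of detection in WT control. It stood at 0.0522, 0.0117, 0.011005 and 0.05902 CPM in WT control, 1.95, 1.09, 1.13 and 2.02 in Irgm1KO control and 0.175, 0.0939, 0.0719 and 0.216 under the drug. The treated mutant lay below every untreated mutant library and above every WT control library. Its difference from WT control was called (edgeR adjusted p = 0.00701), which makes Ifnb1 partly returned. The values of WT control and of the treated mutant correspond to few reads, so no fold is given.

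Genes typical of interferon gamma, which is made by lymphocytes and activates macrophages, were called below WT control more often than above it. Of 30 tested, 2 were higher and 13 lower than WT control under the drug, with a median of -0.08 (from 0.31 in Irgm1KO control). Their called share of 50.0% was near that of all genes (48.4%). Nos2, the inducible nitric oxide synthase, stood at 52.9, 48.1, 65.4 and 65.5 CPM in WT control, 272, 274, 186 and 273 in Irgm1KO control and 44.8, 88.6, 65.04 and 76.8 under the drug, and returned with 0.25 ± 0.21 remaining. In Irgm1KO control, replicate 3 stood below the other 3 libraries. Gch1, which makes a cofactor of Nos2, returned as well (1.11 before, 0.05 under the drug). The guanylate-binding proteins, which coat microbe-containing vacuoles, ended below WT control where called: Gbp3 at -0.51 and Gbp5 at -0.80. The immunoproteasome subunits Psmb8 and Psmb9 were the members still higher, by 0.27 and 0.23.

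Genes of antigen presentation differed from WT control in both directions. Of 22 tested genes of MHC class I presentation, 8 remained higher and 3 were lower (median 0.13, from 0.46), a called share of 50.0% beside 48.4% of all genes. Among the higher ones, the non-classical H2-Q7 stood at 9.49, 53.2 and 22.9 CPM in WT control, Irgm1KO control and Irgm1KO fenofibrate, and its reads may be shared with near-identical H2-Q genes. Of 12 genes of MHC class II presentation, 7 were lower and H2-Ob was higher (median -0.29, from -0.16, 66.7% called). Cd74, the invariant chain, went from 4840.1 ± 645 CPM in WT control to 3165 ± 313 (SD, n = 4), a log2 difference of -0.61 ± 0.12 against -0.17 before the drug. Ciita, the factor that switches class II genes on, was lower both before (-0.43) and under the drug (-0.49).

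Inflammatory cytokines and chemokines fell with the drug, and as many returned to WT control as ended below it. Of 31 tested, 25 fell with the drug in the mutant (median -1.50). Against WT control 11 ended lower and 5 higher, with a median of -0.52 from 0.61, and 11 had returned. The called share of 51.6% was near that of all genes (48.4%). Cxcl10, the ligand of Cxcr3 whose promoter is printed above, stood at 829, 944, 911 and 854 CPM in WT control, 1375, 1134, 1076 and 1324 in Irgm1KO control and 178, 183, 146 and 196 under the drug. All treated mutant libraries lay far below both other groups, with a difference from WT control of -2.33 ± 0.17 (adjusted p = 1.04e-07). Tnf went from 62.9, 62.9, 59.5 and 60.9 CPM in Irgm1KO control to 22.3, 30.9, 24.6 and 24.7, below 39.2, 44.1, 38.9 and 44.6 in WT control, by 0.70 ± 0.08 on the log2 scale.

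The chemokines for monocytes kept part of their rise. Ccl2, which recruits Ccr2-bearing monocytes, stood at 11.8, 14.98, 12.96 and 14.9 CPM in WT control, 117, 77.6, 84.7 and 100.1 in Irgm1KO control and 36.1, 28.3, 31.8 and 37.4 under the drug, with 1.29 ± 0.16 remaining of 2.79. Ccl7, a related ligand, likewise kept 1.29 ± 0.22 of 3.81. Ccl5 returned (1.71 to -0.30), as did Il1rn, the secreted antagonist of the interleukin-1 receptor (2.37 to 0.41), although Il1rn was called in a fit of the 2 groups alone (adjusted p = 0.0283). Il1b had been lower in Irgm1KO control (-1.36) and fell further, to 0.1997, 0.0939, 0.236 and 0.0795 CPM against 3.15, 3.55, 2.78 and 3.53 in WT control. Il6 was listed at 0.0224 CPM in WT control, 0.162 in Irgm1KO control and 0.00829 under the drug on average, a handful of reads per library, and no fold is given. Ccl22, a ligand of Ccr4, was the member left higher with no drug call (1.39 from 1.31).

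Genes that NF-κB induces, many of which encode its own inhibitors, were mostly below WT control under the drug. Of 26 tested, 12 were higher and 4 lower in Irgm1KO control (median 0.14). With fenofibrate 24 fell in the mutant, and 20 were lower and 1 higher than WT control (median -0.75), with 1 more higher without Irgm1KO fenofibrate replicate 2. In the main fit 80.8% were called, beside 48.4% of all genes. Nfkbia, the first inhibitor to be resynthesised after activation, stood at 108, 117, 104 and 123 CPM in WT control, 137, 127, 115 and 127 in Irgm1KO control and 45.5, 62.6, 52.7 and 50.3 under the drug. Its treated mutant libraries lay below both untreated groups (-1.10 ± 0.09). The apoptosis inhibitor Birc3 ended at -1.45, the co-stimulatory receptor Cd40 at -1.28 from 1.13 above WT control, and the subunit Nfkb1 at -0.58. Bcl2a1d, 1 of several near-identical genes, was the member that stayed higher (1.02). WT fenofibrate stood close by, with a median of -0.66 for this list and -0.62 for the cytokines.

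Most genes of the ATF4 response were left changed or moved further from WT. ATF4 is the transcription factor of the integrated stress response, and its targets make, import and charge amino acids. Of 35 tested, 26 were higher and Cebpb was lower than WT control under the drug (-0.29), with a median of 1.17 against 1.12 before it. Called in that comparison were 77.1%, beside 48.4% of all genes. By class, 14 were left changed and 9 moved further, and in the paired fit these were 9 and 12. The ATF4 element TGATGNAAN (NTTNCATCA on the other strand) was found in 10 of 34 windows of 29 matched members (29.4%) and in 308 of all 13051 windows (2.36%). The promoters of a member left changed and of a member that moved further are given here with the match in capitals, Asns carrying it 23 bases and Pycr1 103 bases before the start.
Asns (GRCm38.p6, chr6:7693210-7693459, minus strand): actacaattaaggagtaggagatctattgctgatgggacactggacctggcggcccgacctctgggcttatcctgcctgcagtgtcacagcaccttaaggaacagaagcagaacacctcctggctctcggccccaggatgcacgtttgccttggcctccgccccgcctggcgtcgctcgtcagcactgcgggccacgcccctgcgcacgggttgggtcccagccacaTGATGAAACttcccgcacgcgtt
Pycr1 (GRCm38.p6, chr11:120643749-120643998, minus strand): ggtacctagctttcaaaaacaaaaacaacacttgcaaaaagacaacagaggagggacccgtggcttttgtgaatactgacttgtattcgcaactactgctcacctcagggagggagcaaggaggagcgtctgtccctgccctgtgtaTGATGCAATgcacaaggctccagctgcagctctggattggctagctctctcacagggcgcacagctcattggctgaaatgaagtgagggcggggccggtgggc

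Asns, asparagine synthetase, stood at 19.9, 12.1, 13.8 and 22.4 CPM in WT control, 90.9, 90.7, 87.3 and 101 in Irgm1KO control and 78.9, 102, 96.3 and 95.8 in the treated mutant. Both mutant groups lay above all WT control libraries and overlapped each other, and the remaining difference was 2.45 ± 0.20 (adjusted p = 2.56e-07). Trib3, a pseudokinase that dampens ATF4, stood at 5.07, 2.66, 3.25 and 5.03, then 33.5, 33.7, 31.2 and 35.6, then 23.5, 35.6, 34.1 and 29.4 CPM in the same order. Its difference of 2.93 ± 0.29 was among the 12 largest rises (ranked, as in what follows, over genes whose groups did not overlap and whose higher group averaged 5 CPM or more), as was that of the leucine transporter subunit Slc7a5 (2.89 ± 0.17), which had come down from 3.68. Ddit3, the factor CHOP, kept 1.28 ± 0.17 of 1.55.

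Enzymes of serine and one-carbon metabolism in this list were left changed or moved further. Phgdh, the first enzyme of serine synthesis, rose from 2.75 CPM in WT control to 12.9 in Irgm1KO control and 20.99 under the drug (2.92 ± 0.29). Psat1 ended at 1.38 ± 0.09, the folate enzyme Aldh1l2 at 3.08 ± 0.23 and Shmt2 at 1.37 ± 0.08, all having moved further. Psph, which completes serine synthesis, was left 0.65 ± 0.09 higher and the mitochondrial folate enzyme Mthfd2 1.47 ± 0.09. In the paired fit both had moved further, with drug differences of 0.2, adjusted p = 0.0305 for Psph and 0.14, adjusted p = 0.018 for Mthfd2. Atf5, a related factor of the mitochondrial stress response, stood at 24.5, 20.6, 21.2 and 32.6 CPM in WT control, 68.1, 64.6, 61.05 and 70.7 in Irgm1KO control and 88.95, 116, 116 and 106 under the drug, with no overlap between any pair of these groups.

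Fenofibrate raised this list in WT cells by itself, 30 of 35 members, to a median of 1.00. Asns reached 71.7, 63.2, 66.9 and 107 CPM in WT fenofibrate, a rise of 2.17 ± 0.19 against 0.01 ± 0.18 in the mutant, and the difference between them was -2.17 ± 0.26 (adjusted p = 3.51e-05). The drug difference of Trib3 was 3.596 ± 0.30 in WT and -0.13 ± 0.27 in the mutant, a difference between them of -3.72 ± 0.39 (adjusted p = 1.41e-05). The WT mean of Trib3 under the drug, 48.6 CPM, was thus above the mutant's 30.7, while the WT mean without it, 4.0003, was far below the mutant's 33.5.

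Chaperones of the cytosol fell from their mutant levels without reaching WT. Of 19 tested heat-shock genes, 13 were partly returned and 3 returned. Against WT control 15 were higher (median 0.51 from 0.85, 78.9% called beside 48.4% of all genes). Hspa1b, an inducible Hsp70, stood at 0.971, 0.771, 1.71 and 1.26 CPM in WT control, 61.3, 70.6, 51.5 and 66.01 in Irgm1KO control and 2.12, 3.63, 3.06 and 3.43 under the drug. The treated mutant stayed above every WT control library by 1.38 ± 0.28, down from 5.72, and its near-identical neighbour Hspa1a kept 1.57 ± 0.27 of 5.18. Its drug difference was 0.31 ± 0.29 in WT and -4.34 ± 0.28 in the mutant, a difference between them of -4.66 ± 0.39 (adjusted p = 1.55e-06). Hsp90aa1 kept 0.77 of 1.67, and the co-chaperone Chordc1 returned (-0.10).

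Chaperones of the endoplasmic reticulum lay on the other side of WT. Of 20 tested, 12 were lower, 1 of them newly, and Sec61b was higher (median -0.22 from -0.38, 65.0% called beside 48.4% of all genes). A second member was higher without Irgm1KO fenofibrate replicate 1 or 4. Herpud1, which helps degrade misfolded proteins, kept -0.46 ± 0.05 of -1.08, and the co-chaperone Dnajc3 kept -0.59 ± 0.08 of -0.98. The WT drug group was lower for this list too, with a median of -0.37.

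Lipid genes did not move as 1 block. Among receptors and partners of the PPAR family, Ppara did not pass the filter on low counts, and neither did the PPAR target Pdk4. Pparg, the family member typical of lipid-laden macrophages, stood at 22.3, 15.7, 20.6 and 17.9 CPM in WT control, 33.6, 37.7, 32.5 and 32.2 in Irgm1KO control and 30.9, 35.9, 30.1 and 27.95 under the drug, and was left changed (0.71 ± 0.12). The paired fit called its drug difference (-0.13, adjusted p = 0.0443), which makes it partly returned. Of 8 tested members of this list Pparg alone was higher and 4 lower than WT control, the ubiquitous Ppard at -0.37 from -0.59. This is a called share of 62.5%, beside 48.4% of all genes.

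PPAR targets were higher than WT control in 14 of 25 and lower in 2, Cpt1a and Txnip (median 0.18 from -0.05). With this, 64.0% were called, beside 48.4% of all genes. Cd36, a scavenger receptor for oxidised lipoproteins and fatty acids, stood at 303, 142, 366 and 330.4 CPM in WT control, 583, 755, 635 and 439 in Irgm1KO control and 1036, 929, 958 and 791 under the drug. The treated mutant lay above all WT control libraries by 1.70 ± 0.26, and the drug difference in the mutant was not called. Lipoprotein lipase Lpl was likewise left higher (1.35 ± 0.14). In the paired fit, however, both had moved further, with drug differences of 0.64, adjusted p = 0.000134 for Cd36 and 0.31, adjusted p = 0.00265 for Lpl. Fabp4, a fatty acid carrier, was newly raised from 12.2, 15.2, 10.5 and 15.2 to 18.7, 24.4, 28.5 and 28.02 CPM (0.91 ± 0.18), and the thioesterase Acot1 moved from -0.92 to 1.77. Plin2, which coats lipid droplets, kept 0.48 ± 0.08 of 0.70. Angptl4 kept 0.58 ± 0.20 of 1.16, and that call is lost without WT control replicate 3 (0.43) or 4 (0.51), without Irgm1KO fenofibrate replicate 2 (0.41) or in a fit of the 2 groups alone (0.57). Cpt1a, which lets fatty acids into mitochondria, was -0.30 ± 0.05 from WT control, and Txnip, a glucose-responsive arrestin, -0.88 ± 0.07. An exact consensus of the PPAR response element was also searched for (AGGTCA, any base, AGGTCA, or TGACCT, any base, TGACCT on the other strand). It was in 0 of 19 windows of 18 matched members and in 6 of all 13051 windows (0.046%). With a string this rare, 0 of 19 says nothing about PPAR elements in these promoters.

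Peroxisomal enzymes, the classic fibrate targets of rodent liver, returned to WT in part. Of 39 tested, 20 were lower in Irgm1KO control and 20 rose with the drug. Under it 7 were higher and 11 lower than WT control, with 14 returned and a median of -0.03 from -0.21. Their called share of 46.2% was near that of all genes (48.4%). The count of 11 lower was 7 without WT control replicate 3 and 7 without Irgm1KO fenofibrate replicate 3. Catalase (Cat), which breaks down the hydrogen peroxide made there, stood at 177, 195, 197 and 218 CPM in WT control, 130.5, 143, 130.2 and 143 in Irgm1KO control and 177, 162, 200.3 and 194 under the drug. The treated mutant overlapped WT control, and Cat returned from -0.52 to -0.10 ± 0.13. Hsd17b4, an enzyme of peroxisomal β-oxidation, kept -0.47 ± 0.06 of -0.93. Acot4 was newly raised, by 2.47 ± 0.39. Of 22 genes of peroxisome biogenesis 6 were higher and 2 lower (36.4% called), and Pex11a, which drives peroxisome division, stood at 0.47 from 0.10. DESeq2 called 5 of the 22 lower.

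Mitochondrial fatty acid oxidation held 12 higher and 4 lower of 28 (median 0.12 from -0.09), and the 12 became 6 without WT control replicate 2. The called share was 57.1%, beside 48.4% of all genes. Acadm, medium-chain acyl-CoA dehydrogenase, returned (-0.24 to -0.05). Echs1, the enoyl-CoA hydratase, was newly raised (0.42 ± 0.05), and the propionyl-CoA carboxylase subunit Pccb kept -0.27 of -1.05.

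Cholesterol synthesis genes were raised by the drug throughout the list. Sterol-responsive SREBP2 controls these genes. Of 25 tested, 20 were lower in Irgm1KO control (median -0.50) and 25 of 25 rose with fenofibrate in the mutant (median 0.64). Under the drug 11 were higher and 4 lower than WT control, a called share of 60.0% beside 48.4% of all genes. The median was 0.20, 9 had returned and 7 had moved past. Sqle, squalene epoxidase, stood at 14.98, 14.9, 10.2 and 16.2 CPM in WT control, 7.495, 7.75, 8.27 and 5.9997 in Irgm1KO control and 23.6, 25.3, 24.6 and 27.05 under the drug. All treated mutant libraries were above all WT control libraries, by 0.84 ± 0.13 (adjusted p = 6.08e-05). The sterol carrier Stard4 went from 5.52, 6.73, 8.68 and 5.702 CPM in Irgm1KO control to 24.7, 17.4, 22.3 and 23.8, overlapping 22.3, 26.6, 17.98 and 23.6 in WT control, and returned (-1.76 to -0.04).

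In WT cells the drug difference of these genes was smaller for most. The WT list median under the drug was -0.02, with 1 of 25 higher and 7 lower, where 35% of all genes were called. The difference of the 2 drug effects was called above 0 for 21, beside 14.9% of all genes. The drug difference of Sqle was 0.24 ± 0.13 in WT and 1.77 ± 0.13 in the mutant, a difference of 1.53 ± 0.18 (adjusted p = 1.95e-05).

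Genes of fatty acid synthesis were higher in 8 and lower in 4 of 22 (median 0.15), a called share of 54.5% beside 48.4% of all genes. The 8 higher became 4 in a fit of the 2 groups alone, 5 with no filter on low counts and 5 without WT control replicate 2 or 4. Fasn, fatty acid synthase, returned from -0.93 to -0.07, and Acss2, which activates acetate, was left 0.58 ± 0.14 higher, or partly returned in the paired fit (drug difference -0.30, adjusted p = 0.00479). Me1, which supplies NADPH for the pathway, was left 1.11 higher.

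The cholesterol exporters Abca1 and Abcg1 moved further from WT. Abca1, the exporter that loads apolipoproteins with cholesterol, stood at 199.7, 201, 227 and 165 CPM in WT control, 70.2, 68.4, 58.7 and 60.8 in Irgm1KO control and 8.97, 6.75, 7.63 and 8.09 under the drug. No library of 1 group overlapped another, and the difference of -4.66 ± 0.23 from WT control (adjusted p = 5.78e-09) was among the 12 largest falls. In WT fenofibrate it stood at 39.8, 43.2, 49.8 and 20.6 CPM. Abcg1, a second exporter, ended at -1.33 ± 0.15 and Mylip, which degrades the LDL receptor, at -1.65 ± 0.09. All 3 are LXR targets, and of 15 tested LXR targets 6 were lower and Smpdl3a was higher by 0.29 ± 0.11 (median -0.06), a called share of 46.7% beside 48.4% of all genes, and 3 had returned. The call of Smpdl3a is lost without WT control replicate 1, 2 or 3 (0.24 to 0.28), or without Irgm1KO fenofibrate replicate 2, 3 or 4 (0.22 to 0.30). Nr1h3, which encodes LXRα, returned (1.53 to -0.06). Of 21 lipid droplet and lipid handling genes 15 were higher and Lipe was lower (median 0.35 from 0.25, 76.2% called). Without Irgm1KO fenofibrate replicate 2, 1 more was lower. Among the higher ones was Mgll, which splits monoacylglycerol (1.66 ± 0.33).

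**Figure D3:**
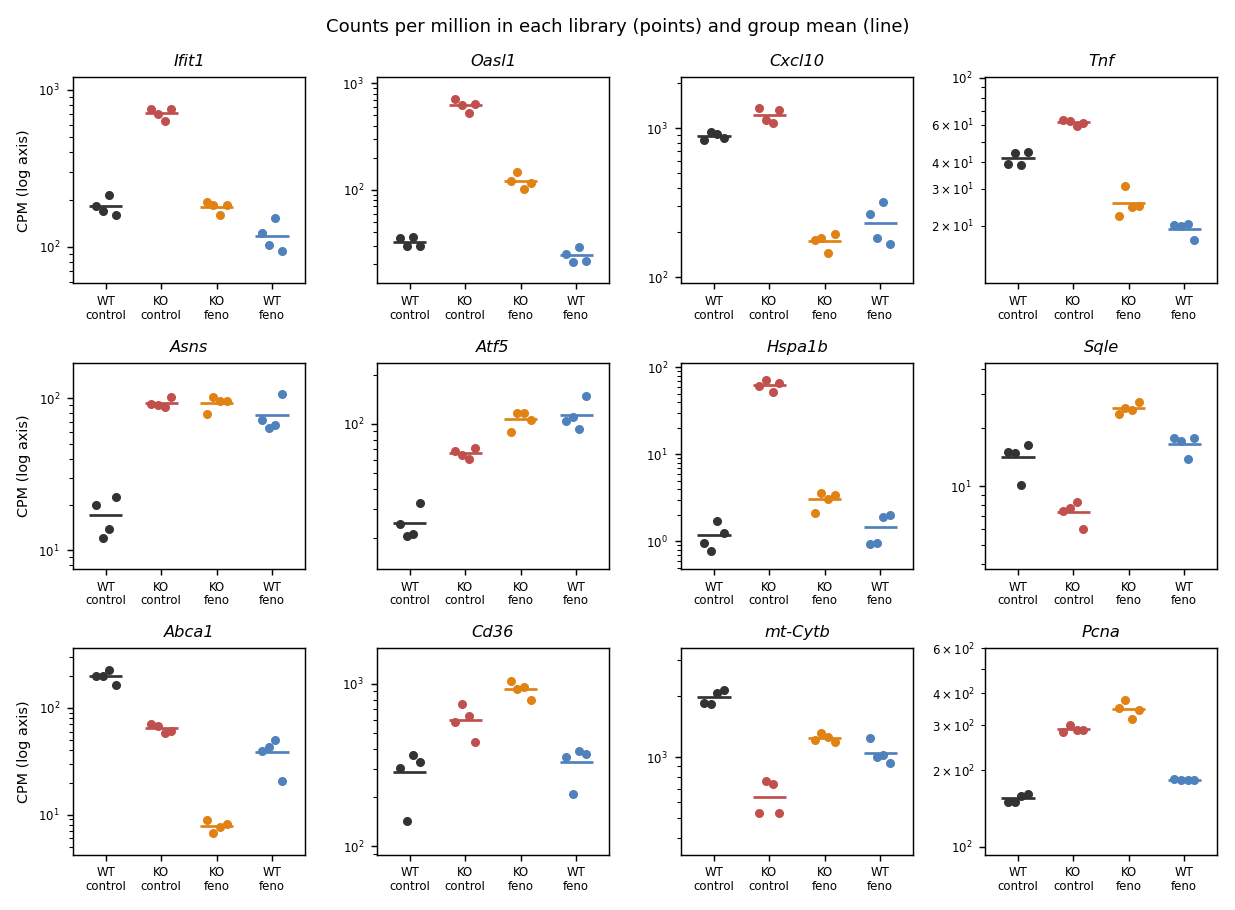
CPM (y axes, log scale, a separate range for each gene) of 12 genes in each library (points) and the group mean (lines) for WT control, Irgm1KO control (KO control), Irgm1KO fenofibrate (KO feno) and WT fenofibrate (WT feno). Ifit1 in the treated mutant overlaps WT control, Oasl1 and Hspa1b lie between WT control and the untreated mutant, Cxcl10, Tnf and Sqle lie past WT control, and Abca1, Atf5 and Pcna lie farther from WT control than the untreated mutant.

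Transcripts encoded in mitochondria came most of the way back. The messenger RNAs of the mitochondrial genome encode subunits of the respiratory chain and of ATP synthase, and 7 of them were tested. All 7 were lower in Irgm1KO control (median -1.17) and all 7 rose with the drug (median 1.05). Against WT control 4 remained lower and 3 were returned (median -0.27), a called share of 57.1% beside 48.4% of all genes. mt-Cytb stood at 1857, 1819, 2061 and 2151 CPM in WT control, 529, 759, 739 and 529.9 in Irgm1KO control and 1209, 1311, 1251 and 1191 under the drug. The treated mutant lay between the other 2 groups without overlap, -0.67 ± 0.12 from WT control. In WT fenofibrate mt-Cytb fell by 0.91 ± 0.12, and the difference between the drug effects was 1.87 ± 0.17 (adjusted p = 1.42e-06).

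The share of all counts from mitochondrially encoded genes was 1.91% ± 0.143 in WT control, 0.895% ± 0.0999 in Irgm1KO control, 1.58% ± 0.0572 in Irgm1KO fenofibrate and 1.38% ± 0.119 in WT fenofibrate (SD, n = 4 each). Irgm1KO fenofibrate was 0.326 percentage points below WT control (exact two-sided permutation p = 0.0286, the smallest that 4 against 4 can give) and 0.685 above Irgm1KO control (the same p). The libraries of these 3 groups did not overlap.

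Nuclear genes of the same complexes lay on the other side. Of 45 tested genes of oxidative phosphorylation, 36 were higher and Ndufb8 (named after its value was seen) was lower than WT control (median 0.27 from 0.22). Called were 82.2% of the list, beside 48.4% of all genes, and 19 were left changed. Cytochrome c1 (Cyc1) was 0.57 ± 0.06 above WT control, the complex III subunit Uqcrq 0.87 ± 0.08 and cytochrome c (Cycs) 0.68 ± 0.06. These 3 differences were all under 2-fold.

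Glycolysis and hypoxia-response genes were mostly above WT under the drug. Of 35 tested, 28 were higher and 4 lower (median 0.59 from 0.16, 91.4% called beside 48.4% of all genes), and 13 had moved further. Tpi1, triose phosphate isomerase, stood at 311, 287, 319 and 298 CPM in WT control, 475, 481, 465 and 485 in Irgm1KO control and 577, 711, 622 and 622 under the drug (1.06 ± 0.07). Pgk1 ended at 1.03 ± 0.07 and Gapdh at 0.92 ± 0.07. Aldoc, an aldolase isoform, moved from -0.84 to 0.82. In WT fenofibrate the list's median was 0.29.

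Cell cycle genes divided by phase. Of 34 tested mitosis genes, 32 were lower in Irgm1KO control (median -0.93) and 33 rose with the drug. Against WT control 11 ended higher, with 23 returned, 10 moved past and a median of 0.25. Their called share was 32.4%, beside 48.4% of all genes. The count of 11 was 7 without WT control replicate 1, without WT control replicate 3, without Irgm1KO fenofibrate replicate 1 or with no filter on low counts, and 3 without both libraries numbered 1. Plk1, a mitotic kinase, returned from -1.39 to 0.14, and Cdk1, the kinase that drives entry into mitosis, moved past, from 28.2, 23.9, 25.3 and 27.1 to 58.9, 50.6, 41.97 and 50.4 CPM beside 34.7, 41.1, 32.3 and 38.04 in WT control (0.47 ± 0.12).

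Genes of DNA replication and the G1/S step, in contrast, were mostly higher in the mutant with and without the drug. Of 36 tested, 25 were higher and 3 lower in Irgm1KO control. Under the drug 33 were higher and 1 was lower than WT control (median 1.03 from 0.53, 94.4% called beside 48.4% of all genes). By class, 13 moved further and 8 were newly changed. The 1 lower was the cell cycle inhibitor Cdkn1a (named after its value was seen), whose call is lost without WT control replicate 3 or without Irgm1KO fenofibrate replicate 3 or 4. Pcna, the sliding clamp of DNA polymerase, stood at 149.7, 149, 159 and 162 CPM in WT control, 281, 300.4, 287 and 287 in Irgm1KO control and 349, 375, 316 and 343 under the drug. The 3 groups did not overlap (1.16 ± 0.05 from WT control). Cyclin E1 (Ccne1) was left 1.79 ± 0.10 higher, and thymidylate synthase (Tyms) ended at 1.32 ± 0.12. In WT fenofibrate the medians were 0.20 for replication and -0.11 for mitosis genes.

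Lysosomal and antioxidant genes were mixed. Of 51 lysosome and autophagy genes 21 were higher and 14 lower (median 0.15, 68.6% called beside 48.4% of all genes). Cathepsin B (Ctsb) returned from -0.57 to -0.02, Gpnmb was newly raised (0.69 ± 0.15), and the autophagy kinase Ulk1 was left 0.70 ± 0.05 below WT control. Of 32 NRF2 and antioxidant genes 19 were higher and 3 lower (median 0.36 from 0.13, 68.8% called). Haem oxygenase Hmox1 stood at 159, 181, 152 and 193 CPM in WT control, 345, 358, 334 and 364 in Irgm1KO control and 275, 314, 313 and 294 under the drug, and was left changed (0.81 ± 0.11), or partly returned in the paired fit (drug difference -0.23, adjusted p = 0.00282). Gstm1, a glutathione transferase, was newly raised (1.51 ± 0.19), and Nfe2l2, which encodes NRF2, ended at -0.97 ± 0.06.

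Markers of alternative activation returned only in part. Of 17 tested, 7 were lower and 3 higher than WT control under the drug (median -0.29 from -0.26). Their called share was 58.8%, beside 48.4% of all genes. By class, 2 were returned, 4 partly returned and 6 left changed, and in the paired fit these were 2, 6 and 4. Arg1, arginase, stood at 0.0313, 0.0234, 0.03301 and 0.0843 CPM in WT control, 1.01, 1.43, 1.67 and 0.783 in Irgm1KO control and 0.624, 0.657, 0.513 and 0.375 under the drug, with 3.54 ± 0.39 remaining of 4.71, WT control resting on few reads. The chitinase-like Chil3 was left 2.75 ± 0.48 lower on the log2 scale, and the lectin receptor Clec10a 1.80 ± 0.34. In the paired fit both were partly returned, with drug differences of 1.42, adjusted p = 0.0228 for Chil3 and 0.71, adjusted p = 0.00664 for Clec10a. The transcription factor Klf4 kept 1.11 ± 0.21 of 2.22. Timd4, a phosphatidylserine receptor of resident macrophages, was not called (0.15 ± 1.09), but WT control replicate 1 held 8.86 CPM and the other 3 at most 0.704. Without that replicate Timd4 was called at 2.94 above WT control.

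**Figure D4:**
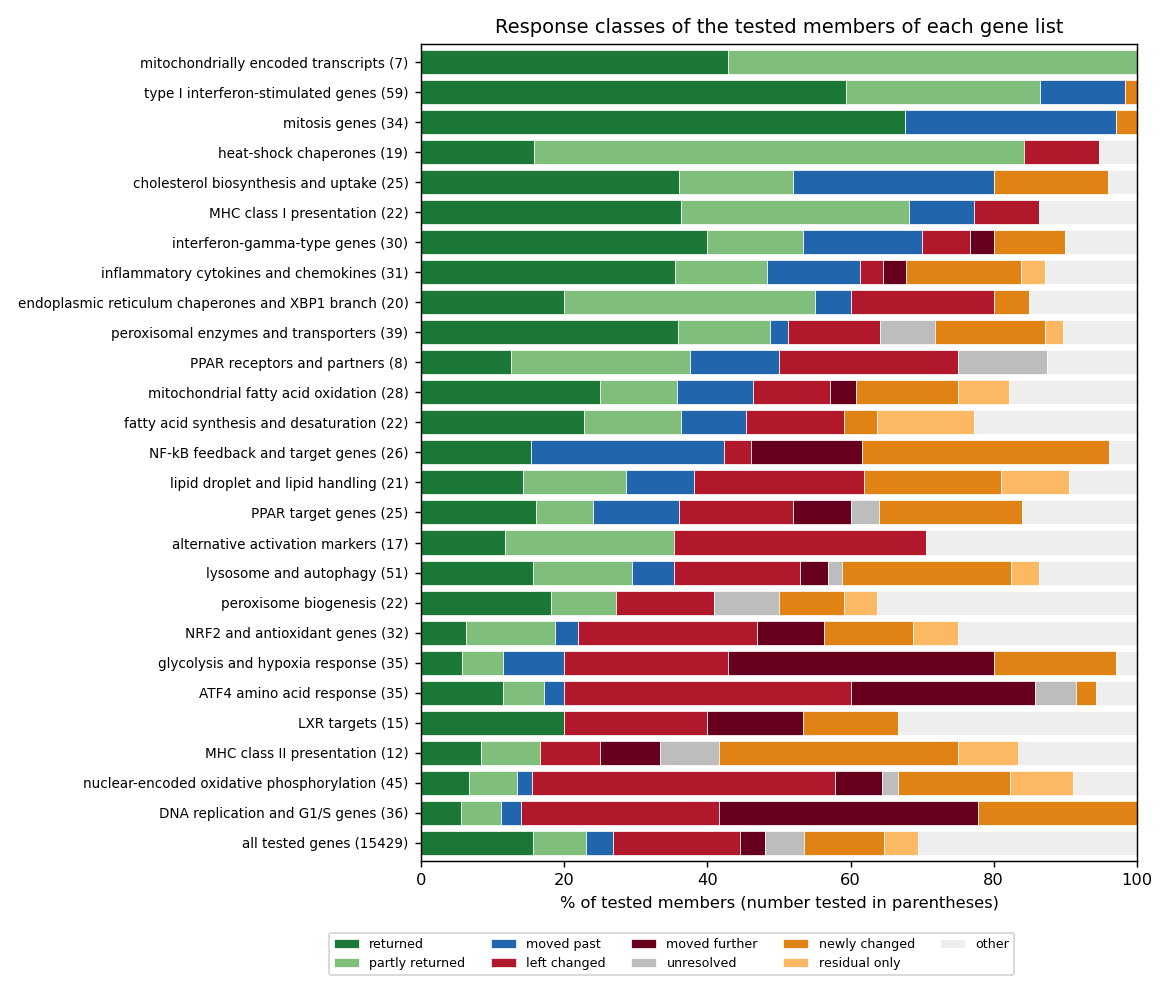
Each bar divides the tested members of a gene list (number in parentheses) by response class, in percent (x axis), with all tested genes in the lowest bar. Interferon-stimulated genes, mitosis genes and mitochondrially encoded transcripts hold mostly returned, partly returned and moved-past members, while the ATF4 and DNA replication lists hold mostly members left changed or moved further.

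Across the 26 lists, the medians before and under the drug show the same split. The median of interferon-stimulated genes went from 1.44 to 0.05, and that of mitochondrially encoded transcripts from -1.17 to -0.27. Those of the ATF4 list (1.12 to 1.17) and of nuclear oxidative phosphorylation genes (0.22 to 0.27) hardly moved, and NF-κB targets went from 0.14 to -0.75. These medians describe lists of unequal size, and members of a list share regulators, so they are not independent.

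**Figure D5:**
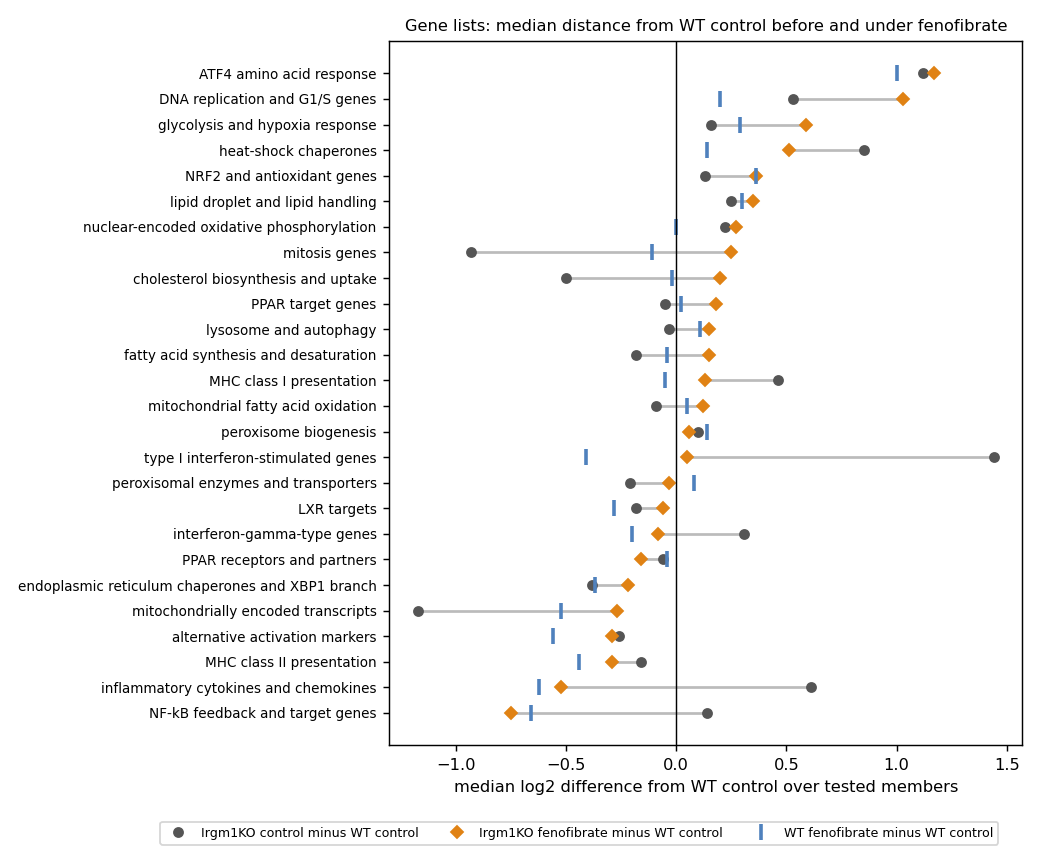
For each gene list (y axis), the median log2 difference from WT control (x axis) of its tested members in Irgm1KO control (grey circles), Irgm1KO fenofibrate (orange diamonds) and WT fenofibrate (blue marks). A diamond near 0 with a circle far from it, as for interferon-stimulated genes, marks a list whose median came back to WT control.

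Outside the 26 gene lists, Ocstamp had the largest remaining rise in that ranking. This osteoclast marker takes part in the fusion of macrophages into multinucleate cells. It stood at 3.33, 2.31, 2.45 and 4.34 CPM in WT control, 29.2, 37.1, 33.5 and 21.6 in Irgm1KO control and 51.4, 86.9, 57.9 and 40.1 under the drug, 4.24 ± 0.34 above WT control. In WT fenofibrate it stood at 3.17, 1.27, 2.08 and 3.52 CPM, near WT control. The serpins Serpinb1c (3.91 ± 0.36) and Serpinb6b (2.35 ± 0.26) were left higher with no drug call, but had moved further in the paired fit (drug differences 0.72, adjusted p = 1.42e-05 and 0.48, adjusted p = 1.34e-06). Adenylate kinase Ak4 moved further (2.85 ± 0.24). Plau, the urokinase protease, also moved further, from 184 CPM in Irgm1KO control to 239 (1.83 ± 0.10).

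In the same ranking the largest remaining fall was that of the metalloprotease Adam19 (-5.96 ± 0.58), which went from 2.65, 12.6, 7.54 and 5.29 CPM in WT control to 0.1498, 0.125, 0.0513 and 0.125. It was left changed, or moved further in the paired fit (drug difference -1.20, adjusted p = 0.00598). Cmklr1, the chemerin receptor, ended at -4.29 ± 0.72 and Thbs1, thrombospondin, at -3.08 ± 0.35, both farther from WT than without the drug. Cx3cr1, the fractalkine receptor of monocytes and resident macrophages, stood at 34.6, 90.04, 27.4 and 30.6 CPM in WT control, 5.81, 4.54, 7.35 and 5.83 in Irgm1KO control and 7.24, 3.91, 4.898 and 6.61 under the drug, with no drug call (-3.01 ± 0.42). Hpgd, which degrades prostaglandins, remained 3.34 ± 0.53 lower, left changed or, in the paired fit, partly returned (drug difference 1.51, adjusted p = 0.00396). Pilra, an inhibitory receptor, did not pass the test in Irgm1KO control (-0.00) and was newly lowered (-2.84 ± 0.26).

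Some genes of other kinds returned or went past WT as well. Igfbp4, an insulin-like growth factor binder, went from 6.74 to 37.5 CPM beside 54.1 in WT control, which is a partial return (-0.53 ± 0.11 of -3.01). The lectin Cd33 returned (-2.23 to -0.26), and the epoxide hydrolase Ephx1 kept -1.26 ± 0.19 of -3.01. The membrane protein Ms4a14 moved past, from 67.7, 61.3, 65.1 and 69.3 CPM to 12.8, 12.04, 12.9 and 12.5 beside 22.02, 21.7, 22.9 and 18.001 in WT control. Metallothionein Mt2 was newly raised (1.46 ± 0.21), and Mmp25 newly lowered (-2.07 ± 0.25), with means of 24.7 and 6.26 CPM in WT fenofibrate beside 17.6 and 6.27 CPM in Irgm1KO fenofibrate.

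Drug calls in the 2 genotypes were also counted in each class. Among the 2403 returned genes, WT cells showed a drug call in the same direction for 597, and the 2 drug effects differed by their own test for 1362. Among the 1140 partly returned genes these numbers were 77 and 912. Among the 550 that moved further they were 446 and 102, and among the 1737 newly changed they were 979 and 371. Over all tested genes, 35% were called in WT fenofibrate minus WT control, in either direction, and 29.6% for the difference of the 2 drug effects. Both comparisons reuse libraries whose calls define the classes, which by itself can shift these counts. They are descriptions and do not show that the drug acted differently by class.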

How the data were processed

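Messenger RNA of mouse macrophages was sequenced for 50 cycles, per the labels. The authors deposited raw whole-number counts of reads for each Ensembl gene, and fastp, STAR and DESeq2 with build GRCm39 are named in the submitters' processing notes. How reads were counted, with which annotation release and whether by strand, is not given in the sources used here. Near-identical, overlapping and antisense genes are therefore uncertain. Symbols were matched for 51948 IDs (91.2%).

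Low counts were removed with filterByExpr (minimum count 10, minimum total 15), and TMM scaled the libraries. All 16 libraries of the experiment, 82.4 to 120.8 M counts each, entered 1 quasi-likelihood fit in edgeR 4.0.16 (R 4.3.3), which pools the spread over 4 groups, with Benjamini-Hochberg adjustment over 15429 genes and a threshold of 0.05. DESeq2 1.42.0 was an alternative. In simulated counts, 67, 67 and 66 of 15429 genes were changed 1.5-, 2- and 4-fold in Irgm1KO fenofibrate. The fit found 64.2%, 76.1% and 92.4% of them, and 5.49% of its calls were false. In the real comparison 48.4% of genes were called, so these rates may not hold there. No 2 libraries of a group agreed within counting noise. Replicate numbers paired libraries within a genotype (correlation of deviations 0.29 to 0.63 in Irgm1KO and 0.49 to 0.82 in WT) but not Irgm1KO fenofibrate with WT control (-0.39 to 0).

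The 26 gene lists, the marker lists and the genes named were chosen with earlier results of these data known. Named genes are fixed ones, the largest rises and falls without overlap, the largest of each response class, and per list those with the smallest p (4 in all, 2 per class). All 855 list entries were matched and 756 tested. Promoter sequences and their coordinates are RefSeq's for GRCm38.p6 and were not mixed with the counts' build. A few members are counted in the lists but not reported by name here.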

Additional observations from a re-analysis of the deposited data

Results flagged for a closer look

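Fenofibrate acted differently in the 2 genotypes, by the test of the difference (log2, Irgm1KO minus WT), on 7 genes whose drug difference is given in both. It was lower in the mutant for Hspa1b (-4.66), Trib3 (-3.72), Asns (-2.17), Oasl1 (-1.95) and Ifit1 (-1.35), and higher for mt-Cytb (1.87) and Sqle (1.53). The share of counts from mitochondrially encoded genes rose by 0.54 to 0.781 percentage points in each of the 4 same-numbered Irgm1KO pairs and fell in each WT pair, by 0.194 to 0.757. The mean pair differences lie 1.22 points apart, a difference that was not tested.

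Among 390 groups of 4 libraries checked, 14 held a library far from the other 3, against about 1 in 20 by chance. In WT control these were Timd4 in replicate 1 (8.86 CPM, the others at most 0.704), Cx3cr1 in replicate 2 (90.04, the others at most 34.6), Acot1 in replicate 3 (0.187, the others at least 0.219), Arg1 in replicate 4 (0.0843, the others at most 0.033) and Herpud1 in replicate 4 (78.2, the others at most 69.6). In Irgm1KO fenofibrate they were Gpnmb in replicate 1 (10469, the others at least 14986) and, in replicate 2, Cd33 (13.3, the others at least 23.5), Nfe2l2 (198, the others at least 231), Chordc1 (42.2, the others at least 56.6) and Psmb9 (178, the others at most 150.2). In Irgm1KO control they were Nos2 in replicate 3 (186, the others at least 272), Uqcrq in replicate 3 (48.1, the others at least 52.6), Psph in replicate 4 (10.2, the others at most 9.03) and Txnip in replicate 2 (333, the others at least 347).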

How the results depend on the processing

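The counts of genes higher and lower than WT control under the drug stayed within 1.5 times of 4000 and 3466 under every alternative run: 3399 to 3953 and 3128 to 3437 without 1 library, 3914 and 3771 with DESeq2. No direction reversed. Replicate numbers do not pair the 2 groups, and a replicate block across all groups gave 3933 and 3457. A block within each genotype called 4168 and 4007 genes for the drug in the mutant, and its drug calls changed the class of 833 genes, with returned (2603) then ahead of left changed (2354). Class sizes changed most with a demand of 1.5-fold in each comparison (returned 1155, partly returned 238, moved past 66, left changed 1017, moved further 65, newly changed 584). No filter on low counts gave 356 moved further, and at least 1 CPM in 4 libraries gave 505 unresolved and 447 with a remaining difference alone, where the number of genes tested changes too. Of genes over 2-fold higher in the first experiment the drug lowered 73.0% and raised 2.14%, and 10.6% ended below WT control. Of those over 2-fold lower it raised 59.8% and lowered 2.89%, while 44.0% ended lower and 14.6% higher. The mitochondrial share differed from WT control by -0.396 to -0.290 points without 1 library. Without any 1 of the Irgm1KO fenofibrate libraries the exact p was 0.0571, against 0.0286 without any 1 WT control library. The shares of the 2 groups did not overlap in any of these runs. These p-values thus differ only in how many arrangements of the few libraries are as extreme, and not in the separation of the groups. The cause of the other changes given here was not tested.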

Other observations

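Markers of cells other than macrophages were followed as lists, with summed levels given for WT control, Irgm1KO control and Irgm1KO fenofibrate in that order. Monocyte markers ran from 89.8 to 143, 58.7 to 134 and 23.2 to 66.6 CPM, and B cell markers from 33 to 58.4, 5.39 to 11.6 and 7.17 to 20.5. Dendritic cell markers (6 of 9 tested) ran from 57.4 to 66.7, 102 to 106 and 116 to 140 CPM, and osteoclast markers (5 of 7 tested) from 103 to 112, 117 to 125 and 137 to 179. Against WT control under the drug, 2 dendritic cell markers were called higher and 1 lower (median log2 difference -0.04). Of the osteoclast markers 3 were higher and 1 lower (median 0.68). The osteoclast sum includes Ocstamp, whose rise is given above, and so does not show a rise of the other members. Endothelial markers, of which Tek and Emcn did not pass the filter on low counts, stood at 32 to 46.2 CPM in WT control, at 131 to 224 in Irgm1KO control and at 32.7 to 43.4 under the drug. Of the 3 tested, 2 were higher in Irgm1KO control and returned, and Pecam1 was lower (-2.17). Their part in the genes that returned was not tested. Megakaryocyte markers, of which 1 of 5 was tested, ran from 12.8 to 16.3, 7.98 to 9.03 and 12.9 to 14.3 CPM. Each sum holds only members that passed the filter on low counts, which left 2 of 6 B cell markers. Also left were 2 of 10 neutrophil, 1 of 8 T and NK cell, 1 of 7 mast cell and 3 of 8 fibroblast markers. The neutrophil, T and NK cell, mast cell and fibroblast sums were under 5 CPM in each library of these 3 groups. Of 7 erythroid markers 0 passed, so no level is given for them. The defining B cell genes Ms4a1, Cd79a and Pax5, the neutrophil gene Ly6g and the T cell genes Cd3e and Cd3d did not pass the filter on low counts.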
